A study of Mus musculus with 18 samples.

Results

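The 60 genes described here encode the secreted ligands, receptors, Smad proteins and extracellular antagonists of BMP, activin, Nodal and TGF-beta signalling. They were taken from the array annotation by a rule on symbols, which was written with earlier results of these data known. The rule covers bone morphogenetic proteins and their receptors, growth and differentiation factors, inhibin subunits, activin receptors, Smads, TGF-beta ligands and receptors, Nodal, Lefty1, Lefty2, noggin, chordin, Grem1, follistatin and follistatin-like genes. They are 60 of the 30869 gene symbols on the array, and 90 of its 45281 probes. Each gene was followed by the probe with the brightest mean signal over all arrays, and 18 of the genes had several probes.

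Expression was measured on 18 MouseWG-6 v2 bead arrays (Illumina) in 6 conditions with 3 arrays apiece, in the mouse embryonic stem (ES) cell line ESD3, also called D3, of strain 129s2/SvPas. The control cells carried a retroviral shRNA against luciferase, and the knockdown cells an shRNA against HPRT, the purine salvage enzyme whose loss causes Lesch-Nyhan disease. Both were compared at the ES stage, as spherical neural masses (SNM stage) and at the final stage of a dopaminergic neuronal differentiation (neuronal stage). All ES cultures were grown on primary mouse embryo fibroblast feeder cells with leukaemia inhibitory factor and bFGF, and no animals were used. Independent cultures of a condition were combined into 1 RNA pool, and that pool was read on 3 arrays. Every SD and every test therefore covers array error and not the spread between cultures.

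Ligands of this superfamily bind pairs of type I and type II receptor kinases, which phosphorylate Smad proteins that enter the nucleus and regulate transcription. BMP receptors signal mainly through Smad1, Smad5 and Smad9, and activin, Nodal and TGF-beta receptors through Smad2 and Smad3. In mouse ES cells Nodal signalling accompanies pluripotency, BMP signalling opposes neural fate, and noggin, chordin and follistatin, which bind these ligands, are the classical neural inducers. Later, the same ligands pattern the dorsal neural tube and regulate glial, muscle and mesenchymal fates.

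Hprt1, the targeted gene, was 94.1% lower in knockdown than in control cells at the ES stage, 70.5% lower in SNM cells and 95.4% lower in the neuronal pool. Each array detected between 18827 and 22202 probes at a detection p-value under 0.05, and arrays of a condition correlated at 0.992 to 0.997. The neuronal-stage pools differed widely in cell type markers. A list of 12 skeletal muscle markers had a summed normalized signal of 86234 to 87334 on control arrays and of 257 to 397 on knockdown arrays, where Ckm, Myod1, Myog and Tnnt3 were detected on no array. A list of 10 oligodendrocyte markers gave 3254 to 3433 in control and 70708 to 73136 in knockdown cells. Of 12 neuron markers, 10 are on the array, and their sum was 10359 to 11104 in control against 5429 to 6278 in knockdown cells, with Nefl and Snap25 detected in neither. Of the defining dopaminergic markers, Pitx3 was detected on no array of the neuronal stage in either cell type, Slc6a3 on no control array and Th on no knockdown array. The whole list of 10 dopaminergic markers summed to 1651 to 1887 in control and 3468 to 3613 in knockdown cells, with Ddc and Lmx1a called higher and none lower. In such bulk samples, fewer cells of a type and less RNA per cell cannot be told apart.

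By the brightest probe, 44 of the 60 genes were detected on all 3 arrays of at least 1 condition, and 25 on all 18 arrays. The other 16 genes met that criterion in no condition. Among these, Bmp10, Bmp8b, Gdf2, Gdf6, Inhbc, Acvrl1, Acvrinp1 and the inhibitory and BMP-activated Smads Smad7 and Smad9 were detected on no array at all. Bmp2, Bmp15, Bmp8a, Gdf5, Inhbe, Bmpr2 and Acvrip1-pending were detected on 1 to 8 arrays and never on all 3 arrays of a condition. A probe that is not above background gives only an upper bound, so these genes are not described as silent.

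Differences were tested with limma on all probes that were detected on all 3 arrays of at least 1 compared condition. To be called, a gene had to differ at least 1.5-fold with a p under 0.05 after Benjamini-Hochberg adjustment. In the ES comparison of knockdown and control, 0 of 30 tested members were called higher and 1 lower, where 0.516% and 1.17% of all probes tested were called higher and lower. Before adjustment, 7 members were higher and 6 lower at p under 0.05, and the unadjusted t-test of the study's methods called the same 0 and 1. The share of all probes at an unadjusted p under 0.05 was not counted. Unadjusted counts, here and for the lists below, therefore have no share beside them and show no trend by themselves. In SNM cells 10 of 40 tested members were higher and 6 lower, beside 11% and 8.9% of all probes. In the neuronal pools 10 of 43 tested members were higher and 13 lower, beside 13.9% and 13.5% of all probes. Over the tested members the log2 fold change had a median of 0.02 in ES cells (0.01 over all tested probes), 0.18 in SNM cells (-0.04) and -0.15 in the neuronal pool (0.01).

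**Figure D1:**
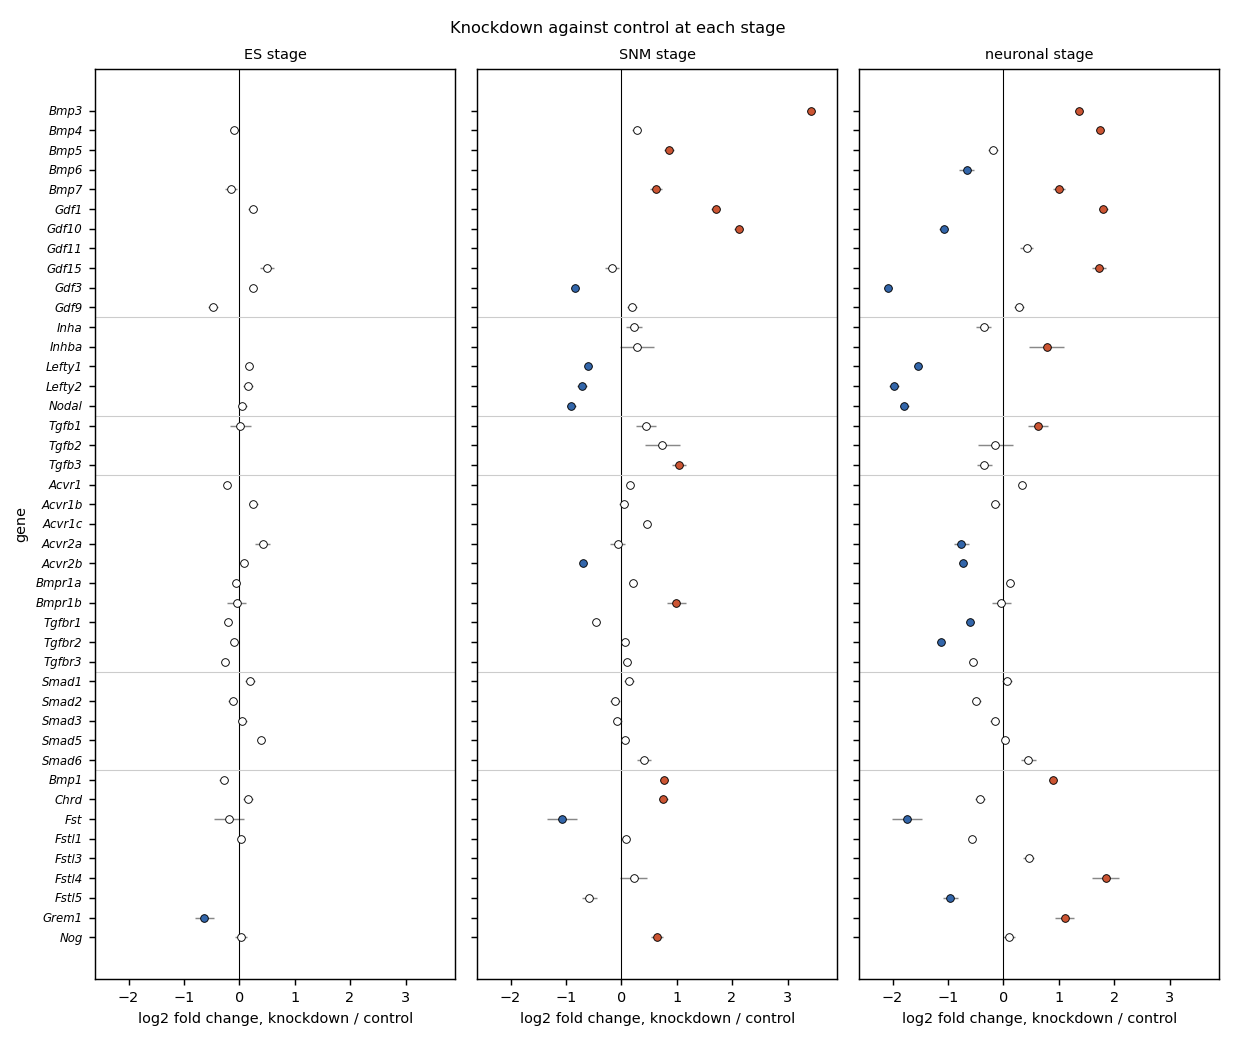
Log2 fold change (knockdown over control, x axis) with its standard error for 43 of the 44 detected members, grouped by role from BMP and GDF ligands at the top to antagonists at the bottom; red points were called higher, blue lower, white were tested and not called, and a missing point was not tested. The ES panel holds 1 called gene, the SNM panel 16 and the neuronal panel 22.

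Most members also moved with differentiation. From the ES to the SNM stage, 19 of 38 tested members rose and 9 fell in control cells (23.7% and 25.4% of all probes), and 21 of 39 rose and 7 fell in knockdown cells (26.4% and 30.9%). From the SNM to the neuronal stage, 12 of 41 rose and 2 fell in control cells (14.3% and 15.1%), against 11 of 42 rising and 8 falling in knockdown cells (13.8% and 14.8%). The knockdown difference itself was compared between stages. It was more positive at the SNM than at the ES stage for 12 of 41 members and more negative for 7 (11.7% and 9.61% of all probes), and at the neuronal than at the SNM stage for 4 of 44 and 16 (13.7% and 14.8%). These comparisons share arrays with one another.

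**Figure D2:**
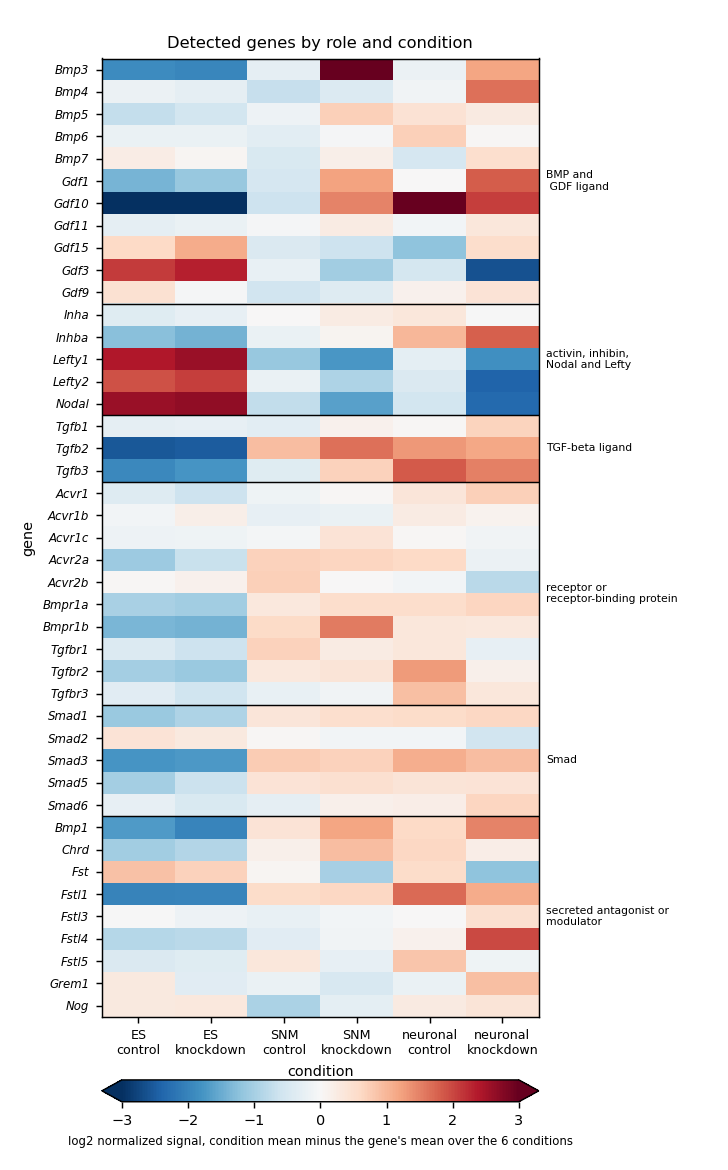
Condition means of 43 of the 44 detected members (rows, by role) in the 6 conditions (columns), as log2 normalized signal minus the gene's own mean over the conditions; red is above and blue below that mean, and colours are capped at 3 and -3. Lefty1, Lefty2, Nodal and Gdf3 are red in the ES columns and bluest in the neuronal knockdown column, Smad1, Smad3 and Smad5 are blue in the ES columns and red in the others, and Bmp3 is darkest in SNM knockdown cells.

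Sequence upstream of the start is shown for 4 ligand genes with unlike patterns, to set them side by side. Nodal was lower in knockdown cells at both later stages, Bmp4 and Gdf15 were called higher in the neuronal pool, and Gdf10 was higher in knockdown SNM cells and lower in the neuronal pool. Each line gives the 250 bases before the start in RefSeq on GRCm38.p6, read in the direction of transcription, and for Gdf15 the more upstream of 2 starts. Capitals mark CAGAC, the Smad box, on either strand.
Nodal, GRCm38.p6 chr10:61417722-61417971, plus strand: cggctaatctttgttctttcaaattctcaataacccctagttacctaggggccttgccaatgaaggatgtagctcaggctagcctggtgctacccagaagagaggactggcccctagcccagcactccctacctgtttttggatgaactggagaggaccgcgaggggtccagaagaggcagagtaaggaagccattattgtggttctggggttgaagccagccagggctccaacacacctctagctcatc
Bmp4, GRCm38.p6 chr14:46390670-46390919, minus strand: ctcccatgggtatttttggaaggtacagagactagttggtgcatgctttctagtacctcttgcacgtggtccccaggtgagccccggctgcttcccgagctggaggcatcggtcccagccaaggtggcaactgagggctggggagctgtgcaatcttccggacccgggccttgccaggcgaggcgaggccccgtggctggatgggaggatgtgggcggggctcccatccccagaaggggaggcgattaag
Gdf10, GRCm38.p6 chr14:33923337-33923586, plus strand: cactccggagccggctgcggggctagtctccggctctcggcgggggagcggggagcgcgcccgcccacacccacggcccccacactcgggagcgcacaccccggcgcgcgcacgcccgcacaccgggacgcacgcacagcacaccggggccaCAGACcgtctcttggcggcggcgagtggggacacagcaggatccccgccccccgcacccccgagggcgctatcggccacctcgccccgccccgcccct
Gdf15, GRCm38.p6 chr8:70632457-70632706, minus strand: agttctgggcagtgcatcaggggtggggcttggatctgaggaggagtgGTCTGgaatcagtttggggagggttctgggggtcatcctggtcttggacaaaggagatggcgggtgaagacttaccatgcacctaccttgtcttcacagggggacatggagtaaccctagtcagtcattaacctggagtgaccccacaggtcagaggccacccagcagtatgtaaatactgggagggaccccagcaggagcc
The windows were searched on both strands for CAGAC, for GGCGCC, a GC-rich element of BMP-Smad targets, and for AATNNACA, which holds the core letters of the FoxH1 motif. No matches overlapped. CAGAC stood once upstream of Gdf10 and once upstream of Gdf15, while the windows of Nodal and Bmp4 held none of the 3 motifs. Of all 32851 promoter windows in the table, 42.2% held CAGAC, 9.59% GGCGCC and 10.9% AATNNACA. Of the 49 windows of 40 members, 51% held CAGAC, 16.3% GGCGCC and 4.08% AATNNACA. The GC content of the window was 53.2% for Nodal, 63.2% for Bmp4, 78.8% for Gdf10 and 56.4% for Gdf15, beside a median of 52.4% over all windows. Lefty1, Lefty2, Gdf3 and Bmp3 have no entry in the table.

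Nodal, its antagonists Lefty1 and Lefty2, and Gdf3, a Nodal-related ligand of pluripotent cells, fell together during differentiation and were lower in knockdown than in control cells at both later stages. In ES cells Nodal read 10.26, 10.38 and 10.39 on control arrays and 10.46, 10.34 and 10.39 on knockdown arrays (log2 normalized signal, as for every level below). The SNM arrays gave 7.11, 6.92 and 7.0 against 6.20, 6.01 and 6.11, and the neuronal arrays 7.34, 7.09 and 7.13 against 5.46, 5.26 and 5.48. The ES values overlapped, and no knockdown array reached a control array at either later stage. The log2 fold change of Nodal was -0.90 (SE 0.08, limma adjusted p = 1.62e-07) in SNM cells and -1.79 (SE 0.08, adjusted p = 1.64e-11) in the neuronal pool. Its second probe was lower by less, at -0.42 (adjusted p = 0.0132, not called) and -0.66 (adjusted p = 0.000449).

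Lefty1 read 7.40, 7.44 and 7.36 on control and 6.88, 6.76 and 6.78 on knockdown SNM arrays, and 8.35, 8.22 and 8.18 against 6.80, 6.65 and 6.67 on neuronal arrays. Lefty2 read 7.66, 7.66 and 7.46 against 6.87, 6.80 and 6.96, and then 7.47, 7.41 and 7.23 against 5.59, 5.37 and 5.23. Both feedback antagonists of Nodal were thus lower on every knockdown array of the later stages, with log2 fold changes of -0.60 (SE 0.07, adjusted p = 2.01e-06) and -0.71 (SE 0.09, adjusted p = 1e-05) in SNM cells. In the neuronal pool these were -1.54 (SE 0.07, adjusted p = 1.02e-11) and -1.97 (SE 0.09, adjusted p = 2.84e-11). The 2 paralogs are nearly identical in sequence, so each probe may also read the other gene's transcript. The SNM call of Lefty1 was lost without control array 2 (-0.57) or without knockdown array 2 (-0.57) or 3 (-0.58), since the fold then lay under 1.5.

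Gdf3 read 8.49, 8.50 and 8.38 on control and 7.75, 7.61 and 7.51 on knockdown SNM arrays, and 8.12, 8.12 and 8.19 against 6.03, 6.23 and 5.94 on neuronal arrays. It had the largest fall of any member in the neuronal comparison, at -2.08 (SE 0.07, adjusted p = 6.12e-13), after -0.83 (SE 0.07, adjusted p = 1.21e-07) in SNM cells. At the ES stage none of the 4 was called, with log2 differences between 0.06 for Nodal and 0.25 for Gdf3.

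From the ES to the SNM stage all 4 fell in both cell types. The log2 changes in control cells were -3.55 for Lefty1, -3.33 for Nodal, -2.31 for Gdf3 and -2.11 for Lefty2, and in knockdown cells -4.32, -4.29, -3.40 and -2.98. On to the neuronal stage, Nodal, Lefty2 and Gdf3 were called lower in knockdown cells alone (-0.71, -1.49 and -1.56). Their changes in control cells were 0.18, -0.22 and -0.32, so Lefty2 and Gdf3 went down there too, by less than the fold for a call. Lefty1 instead rose in control cells (0.85, SE 0.07) with a value of -0.10 (SE 0.07, not called) in knockdown cells. The knockdown difference of each of the 4 was more negative at the SNM than at the ES stage, and again more negative at the neuronal than at the SNM stage, by 0.77 to 1.26 on the log2 scale.

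The summed signal of the 9 measured pluripotency markers moved with these genes. It was 29530 to 29906 on control and 28167 to 31424 on knockdown ES arrays, 4586 to 4955 against 3080 to 3221 on SNM arrays, and 3730 to 3937 against 1013 to 1089 on neuronal arrays. Nanog, Esrrb and Zfp42 were lower in knockdown cells at both later stages, with Nanog at -0.78 (SE 0.07) and -1.92 (SE 0.07). Of the 8 tested markers, 4 were called lower in SNM cells and 6 in the neuronal pool. Pou5f1 hardly differed in SNM cells, with means of 9.95 in control and 9.85 in knockdown cells. The part of remaining pluripotent cells in the values of Nodal, Lefty1, Lefty2 and Gdf3 was not tested.

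**Figure D3:**
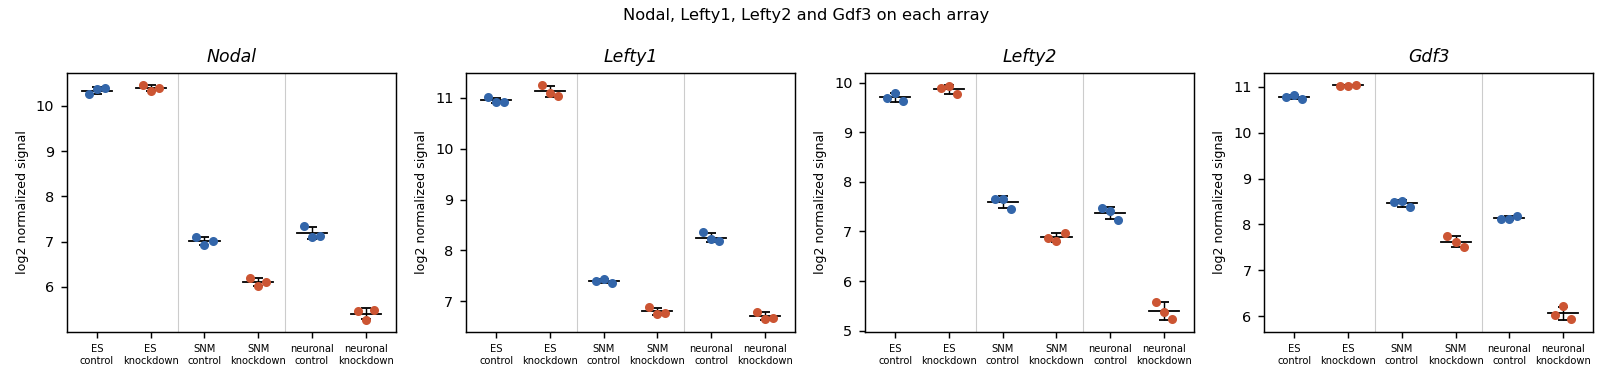
Log2 normalized signal (y axis) of Nodal, Lefty1, Lefty2 and Gdf3 on each array of the 6 conditions (x axis); points are arrays, blue for control and orange for knockdown, with the mean (line) and SD (bars) of 3 arrays. All 4 drop on leaving the ES stage, and knockdown arrays of the neuronal stage lie 1.54 to 2.08 below the control arrays on average.

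Several BMP and GDF ligands were far higher in knockdown SNM cells, and Gdf10 reversed its order afterwards. Of 19 such genes, 9 were tested at the SNM stage, where 5 were higher and 1, Gdf3, was lower in knockdown cells, beside 11% and 8.9% of all probes. Of 11 tested at the neuronal stage 5 were higher and 3 lower, beside 13.9% and 13.5%.

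Bmp3, an atypical BMP that antagonizes other BMPs, was detected on no ES array. SNM arrays read 6.02, 5.98 and 5.85 in control and 9.42, 9.38 and 9.31 in knockdown cells. This was 10.7-fold, or 3.42 on the log2 scale (SE 0.08, adjusted p = 1.03e-14). At the neuronal stage the arrays read 6.16, 5.92 and 6.05 against 7.48, 7.48 and 7.27 (1.36, SE 0.08, adjusted p = 1.91e-10). From the SNM to the neuronal stage control cells differed by 0.09 (SE 0.08, not called), whereas knockdown cells fell by 1.96 (SE 0.08). The knockdown arrays lay above all control arrays at both stages, and the difference was smaller at the neuronal stage by 2.05 (SE 0.11, adjusted p = 1.49e-10).

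Gdf10, also named Bmp3b and the closest relative of Bmp3, was likewise undetected in ES cells. On SNM arrays it read 6.94, 6.87 and 6.87 in control and 8.97, 8.93 and 9.14 in knockdown cells (2.12, SE 0.08, adjusted p = 6.68e-12). The order was the opposite in the neuronal pool, at 10.67, 10.67 and 10.69 against 9.49, 9.60 and 9.73 (-1.07, SE 0.08, adjusted p = 9.15e-09). Control cells rose by 3.78 (SE 0.08) between these stages and knockdown cells by 0.59 (SE 0.08). The change of -3.19 (SE 0.11, adjusted p = 1.37e-12) in its knockdown difference from the SNM to the neuronal stage was the largest of any member.

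Bmp4, a ligand that supports ES cell self-renewal and later patterns dorsal and mesodermal tissue, was detected on all 18 arrays. Neuronal arrays read 8.93, 9.02 and 9.01 in control and 10.71, 10.87 and 10.63 in knockdown cells, a difference of 1.75 (SE 0.08, adjusted p = 1.11e-11). Its second probe gave 2.02 (adjusted p = 1.51e-09). The SNM difference was 0.28 (SE 0.08, adjusted p = 0.00679), under the fold required for a call, and at the ES stage it was -0.09 (SE 0.08).

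Gdf15, a divergent family member known as a stress-induced cytokine, was also called higher in the neuronal pool. ES arrays read 7.24, 7.15 and 7.33 in control and 7.68, 7.73 and 7.82 in knockdown cells (0.50, SE 0.12, adjusted p = 0.0166), below the fold for a call. SNM values overlapped, at 6.28, 6.31 and 6.0 against 6.16, 5.92 and 5.98. In the neuronal pool control arrays read 5.75, 5.39 and 5.15 and knockdown arrays 7.25, 7.19 and 7.05, a difference of 1.73 (SE 0.12, adjusted p = 5.42e-09). Control cells fell by 0.77 (SE 0.12) from the SNM to the neuronal stage while knockdown cells rose by 1.14 (SE 0.12).

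Gdf1, a Nodal-related ligand, was higher in knockdown cells at both later stages. SNM arrays read 9.25, 9.32 and 9.11 in control and 11.02, 10.96 and 10.82 in knockdown cells (1.71, SE 0.08, adjusted p = 8.74e-11), and neuronal arrays 9.81, 9.59 and 9.78 against 11.60, 11.57 and 11.42 (1.80, SE 0.08, adjusted p = 1.23e-11). The differences at the SNM and neuronal stages lay 0.10 apart (SE 0.11, adjusted p = 0.523). Gdf1 shares a bicistronic transcript with Cers1, a ceramide synthase gene, so its probe may read either and its identity is uncertain.

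Bmp5 and Bmp7, of the subgroup that includes the ligands of kidney and dorsal neural development, differed more modestly. Bmp5 read 5.39, 5.54 and 5.37 in control and 6.37, 6.26 and 6.26 in knockdown SNM cells (0.86, SE 0.09, adjusted p = 9.37e-07), and in the neuronal pool its values overlapped (-0.18, SE 0.09, adjusted p = 0.101). Bmp7 was higher in knockdown cells by 0.62 (SE 0.11, adjusted p = 0.000123) and then 1.00 (SE 0.11, adjusted p = 5.09e-07), and its second probe was tested in neither comparison. Bmp6 of the same subgroup was first detected on all 3 arrays in neuronal control cells, at 5.44, 5.42 and 5.45, against 4.54, 4.74 and 5.04 in knockdown cells (-0.66, SE 0.14, adjusted p = 0.000573). Without knockdown array 1 that difference was -0.55 and not called. Gdf9, known as an oocyte factor, was called in no knockdown comparison, with differences between -0.47 (SE 0.09) at the ES stage and 0.29 (SE 0.09) at the neuronal stage. Gdf11, a relative of myostatin, was tested at the neuronal stage only and not called (0.42, SE 0.12).

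Marker lists also differed between knockdown and control cells, in both directions. On SNM arrays the neural progenitor and astrocyte list summed to 7911 to 8906 in control and 13284 to 14330 in knockdown cells. Of its 9 tested markers 4 were called higher and 1, Pax6, lower. The endoderm list summed to 281 to 306 against 1333 to 1386, with its markers Afp, Alb and Gata4 detected on no SNM array. The muscle list summed to 1615 to 1675 in control and 3243 to 3520 in knockdown SNM cells, and the oligodendrocyte list to 15554 to 15774 against 10611 to 11452. At the neuronal stage the muscle and oligodendrocyte sums given above separated the same pools. The part of these cells in the ligand values was not tested.

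**Figure D4:**
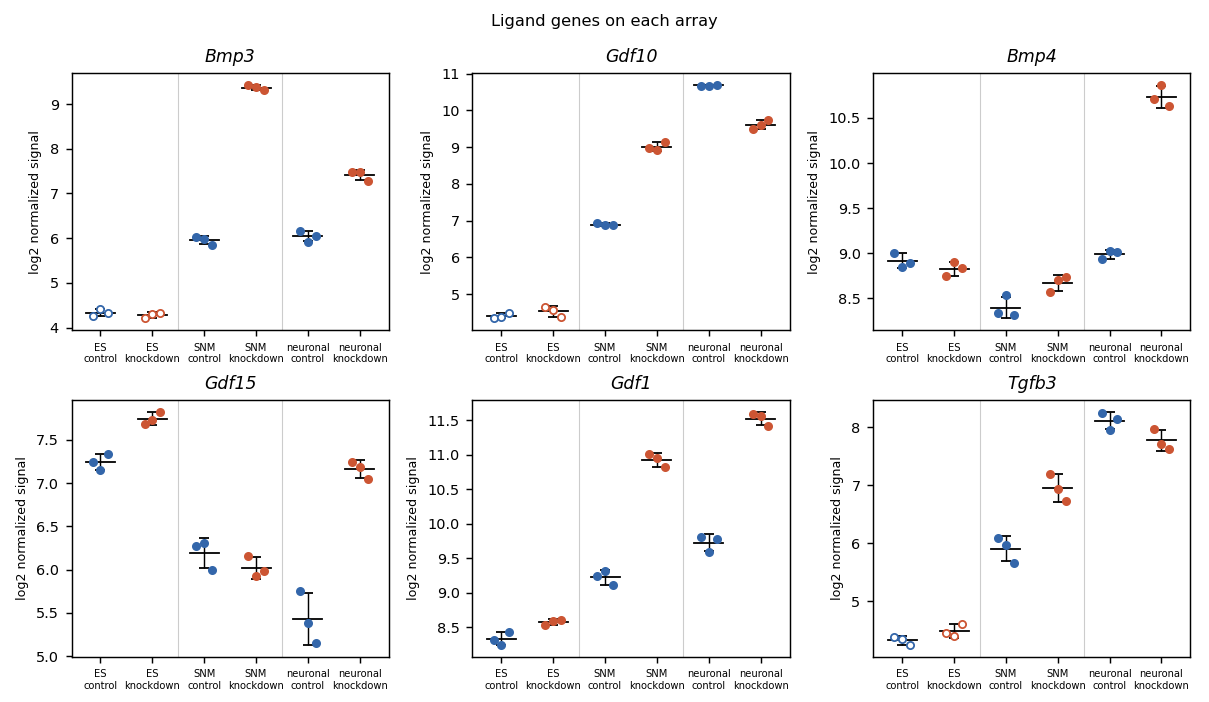
Log2 normalized signal (y axis, scaled for each gene) of 6 ligand genes on each array of the 6 conditions (x axis); points are arrays, blue for control and orange for knockdown, open where the probe was not detected on all 3 arrays, with the mean (line) and SD (bars). Bmp3 peaks at 9.31 to 9.42 in SNM knockdown cells, Gdf10 reverses order between the SNM and neuronal stages, and Bmp4 and Gdf15 separate in the neuronal pools.

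Of the TGF-beta ligands, Tgfb2 and Tgfb3 rose on leaving the ES stage in both cell types, and Tgfb1 was not called. Tgfb2 rose by 3.47 (SE 0.31) in control cells and at least 16.1-fold in knockdown cells, where no ES array detected it. Tgfb3, detected on no ES array of either cell type, rose at least 2.06-fold in control and at least 4.04-fold in knockdown cells. Tgfb3 was higher in knockdown SNM cells, at 7.19, 6.93 and 6.72 against 6.09, 5.97 and 5.66 in control cells (1.04, SE 0.13, adjusted p = 5.61e-06). It then rose by 2.20 (SE 0.13) in control cells and by 0.82 (SE 0.13) in knockdown cells, and the neuronal values overlapped (-0.34, SE 0.13). For Tgfb2 the SNM difference of 0.74 (SE 0.31, adjusted p = 0.0598) was not called. With the array number as a replicate block it was called higher. Tgfb1, a ligand with broad roles in growth arrest and matrix synthesis, was called higher in the neuronal knockdown pool, at 0.63 (SE 0.19, adjusted p = 0.0091). Without control array 2 (0.46) or knockdown array 2 (0.58) it was not called.

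Of the inhibin and activin subunits, Inhba, which forms activin A, rose in both cell types at each step. From the ES to the SNM stage it rose by 1.04 (SE 0.31) in control and 1.5 (SE 0.31) in knockdown cells, and from there to the neuronal stage by 1.21 and 1.71 (SE 0.31 each). Neuronal arrays read 6.83, 7.68 and 7.51 in control and 7.64, 8.30 and 8.40 in knockdown cells. These values overlapped, and the call of 0.78 (SE 0.31, adjusted p = 0.041) was lost without control array 1 (0.52) or 3 (0.86) or knockdown array 2 (0.69) or 3 (0.64). Inha, the inhibin alpha subunit, was called in no comparison.

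Most tested receptor genes rose on leaving the ES stage. In the neuronal comparison 4 of 9 tested were called lower in knockdown cells and 0 higher, beside 13.5% and 13.9% of all probes. Of 14 receptors and receptor-binding proteins, 9 were tested in control cells between the ES and SNM stages, and 6 rose, beside 23.7% of all probes. The type I BMP receptors Bmpr1a and Bmpr1b rose by 1.29 (SE 0.07) and 1.95 (SE 0.17), the TGF-beta receptors Tgfbr1 and Tgfbr2 by 1.11 (SE 0.07) and 1.36 (SE 0.06), and the type II activin receptors Acvr2a and Acvr2b by 1.78 (SE 0.13) and 0.66 (SE 0.06). In knockdown cells 6 of 10 rose as well, beside 26.4%. Acvr2b was not called there, at -0.10 (SE 0.06), and the type I receptor Acvr1 was, at 0.65 (SE 0.05).

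Bmpr1b was the 1 receptor called higher in knockdown SNM cells, at 8.37, 8.37 and 8.24 against 7.25, 7.38 and 7.37 in control cells (0.99, SE 0.17, adjusted p = 0.00015). Another of its probes gave 0.87 (adjusted p = 4.07e-05). In the neuronal pools its values overlapped (-0.04, SE 0.17), and the change between the stages was -1.03 (SE 0.24, adjusted p = 0.00231).

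Acvr2b, which binds activins, Nodal and several GDFs, was lower in knockdown cells at both later stages. It read 11.49, 11.61 and 11.54 in control and 10.93, 10.84 and 10.82 in knockdown SNM cells (-0.68, SE 0.06, adjusted p = 2.2e-07), and -0.73 (SE 0.06, adjusted p = 5.07e-08) was the difference in the neuronal pool. Acvr2a was lower at the neuronal stage alone (-0.76, SE 0.13, adjusted p = 0.000138), at 5.85, 6.06 and 5.94 against 6.56, 6.76 and 6.82.

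Tgfbr2, the type II receptor of the TGF-beta ligands, read 11.07, 11.20 and 10.99 in control and 9.97, 9.98 and 9.92 in knockdown cells of the neuronal stage (-1.13, SE 0.06, adjusted p = 1.51e-10). Its other tested probe did not show this, at 0.06 (adjusted p = 0.743), and with the mean over all its probes the gene was not called (-0.26). Control cells rose by 0.95 (SE 0.06) from the SNM stage, and the value in knockdown cells was -0.24 (SE 0.06, not called). Tgfbr1, its type I partner, was lower by a similar amount in its 2 tested probes, at -0.60 (SE 0.07, adjusted p = 3.31e-06, called) and -0.52 (adjusted p = 0.0083, not called). The call of Tgfbr1 was lost without control array 2 or knockdown array 1 (both -0.55). The co-receptor Tgfbr3 was at -0.55 (SE 0.07, adjusted p = 7.17e-06), under the fold for a call. Acvr1 lay on the other side, higher in knockdown cells by 0.34 (SE 0.05, adjusted p = 5.08e-05, groups not overlapping), also under that fold. The fibroblast marker list moved in the same direction, from 26343 to 29850 in neuronal control to 14487 to 17839 in neuronal knockdown cells, as did the muscle markers above, and their part in the receptor values was not tested.

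No Smad gene was called by limma in any of the 3 knockdown comparisons. Smad4 is not among the 7 Smad members. Before adjustment, at p under 0.05, 1 of 4 tested Smads was higher at the ES stage, 1 of 5 at the SNM stage, and 1 was higher and 1 lower of 5 at the neuronal stage. The BMP-activated Smad1 and Smad5 differed by 0.14 (SE 0.09) and 0.07 (SE 0.07) in SNM cells and by 0.07 (SE 0.09) and 0.04 (SE 0.07) in the neuronal pool. Smad3, which carries activin and TGF-beta signals, differed by -0.07 (SE 0.08) and -0.15 (SE 0.08). Smad5 had a difference of 0.39 (SE 0.07, adjusted p = 0.00142) at the ES stage, under the fold for a call. Smad2 was at -0.49 (SE 0.08, adjusted p = 0.000117) in the neuronal pool, and Smad6, an inhibitory Smad induced by BMP, at 0.41 (SE 0.13) and 0.45 (SE 0.13), all under the fold for a call. A second probe of Smad5 was at -0.58 (adjusted p = 6.25e-06, not called) in SNM cells, against 0.07 for the brightest probe. At the ES stage that second probe was at -0.14 (adjusted p = 0.254), against 0.39. The second probe of Smad3 was at -0.33 (adjusted p = 0.0162, not called) in SNM cells, against -0.07.

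From the ES to the SNM stage 3 of 5 tested Smads rose in control cells and 4 of 5 in knockdown cells, beside 23.7% and 26.4% of all probes. Smad3 rose by 2.55 (SE 0.08) in control and 2.42 (SE 0.08) in knockdown cells between the ES and SNM stages. Smad1 rose by 1.48 (SE 0.09) and 1.43 (SE 0.09), and Smad5 by 1.43 (SE 0.07) and 1.11 (SE 0.07). Smad6 rose in knockdown cells alone (at least 1.29-fold), and its knockdown difference was more positive at the SNM than at the ES stage by 0.62 (SE 0.18, adjusted p = 0.0128), a fitted value that rests on a knockdown ES level detected on no array. From the SNM to the neuronal stage no Smad was called by limma in either cell type, with 2 of 5 higher at an unadjusted p under 0.05 in each and 1 lower in knockdown cells.

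Antagonists moved in both directions. Fst encodes follistatin, which binds activin and several BMPs, and was lower in knockdown cells at both later stages. SNM arrays read 7.11, 7.50 and 7.99 in control and 6.28, 6.38 and 6.72 in knockdown cells (-1.07, SE 0.27, adjusted p = 0.00303), and neuronal arrays 7.42, 8.35 and 8.24 against 5.92, 6.30 and 6.58 (-1.74, SE 0.27, adjusted p = 3.29e-05). The SD over the arrays of a condition reached 0.51 for this gene, and no knockdown array reached a control array. The increase of the difference between the stages was not called (-0.67, SE 0.38, adjusted p = 0.16). With the array number as a replicate block it was called.

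The BMP antagonists chordin and noggin were higher in knockdown SNM cells. Chrd was higher by 0.76 (SE 0.09, adjusted p = 2.69e-06) and Nog by 0.65 (SE 0.11, adjusted p = 0.000129), the latter not called without knockdown array 2 (0.56). In neuronal cells Chrd was at -0.42 (SE 0.09) and Nog at 0.11 (SE 0.11), neither called. Nog had fallen from the ES to the SNM stage by 1.24 (SE 0.11) in control and 0.62 (SE 0.11) in knockdown cells, and rose again by 1.22 (SE 0.11) and 0.68 (SE 0.11) to the neuronal stage. Bmp1, which is a protease that cleaves chordin and procollagens and no ligand, was higher in knockdown cells by 0.76 (SE 0.07, adjusted p = 3.95e-07) and 0.89 (SE 0.07, adjusted p = 3.5e-08), and both of its other tested probes were called higher at both stages.

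Grem1, gremlin 1, a BMP antagonist of limb and mesenchyme, was the 1 member called at the ES stage. Control ES arrays read 5.26, 5.41 and 5.70 and knockdown arrays 4.97, 4.69 and 4.82, the latter detected on no array, so that it was at least 1.44-fold lower (fitted -0.63, SE 0.17, adjusted p = 0.0269). The call was lost without control array 2 (-0.66) or 3 (-0.51) or knockdown array 2 (-0.57) or 3 (-0.63). The ES cultures held feeder fibroblasts, and the fibroblast marker list gave 783 to 853 on control and 617 to 686 on knockdown ES arrays. Of its 12 genes, 6 were detected on all control and 5 on all knockdown ES arrays. Col1a1, Lum, Pdgfrb and Postn were detected on no ES array. Of the 6 tested, 0 were called by limma, with 0 higher and 5 lower at an unadjusted p under 0.05 (median log2 fold change -0.33). The part of feeder cells in the Grem1 value was not tested. In the neuronal pools the order was the opposite, at 4.77, 4.87 and 5.23 in control and 5.77, 6.15 and 6.28 in knockdown cells (1.11, SE 0.17, adjusted p = 3.91e-05), with the fibroblast list lower in knockdown cells.

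The follistatin-like genes, which are related to Fst by a shared domain, went separate ways. Fstl4 rose in the neuronal knockdown pool to 6.80, 7.38 and 7.71, against 4.86, 5.92 and 5.55 in control cells (1.85, SE 0.24, adjusted p = 6.72e-06). Fstl5 lay just outside the calls in SNM cells (-0.58, SE 0.14, adjusted p = 0.0019). It was at least 1.81-fold lower in the neuronal knockdown pool, with 5.45, 5.68 and 5.67 in control cells and no knockdown array detected (adjusted p = 1.44e-05). Fstl1, a secreted glycoprotein abundant in mesenchyme, rose from the ES to the SNM stage by 2.56 (SE 0.05) in control and 2.61 (SE 0.05) in knockdown cells, and to the neuronal stage by a further 1.14 (SE 0.05) in control cells. Its neuronal difference of -0.57 (SE 0.05, adjusted p = 1.06e-07) was just under the fold for a call. Fstl3, an activin-binding relative of Fst, was detected on all 3 arrays in the neuronal knockdown pool alone and was not called (0.46, SE 0.10).

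**Figure D5:**
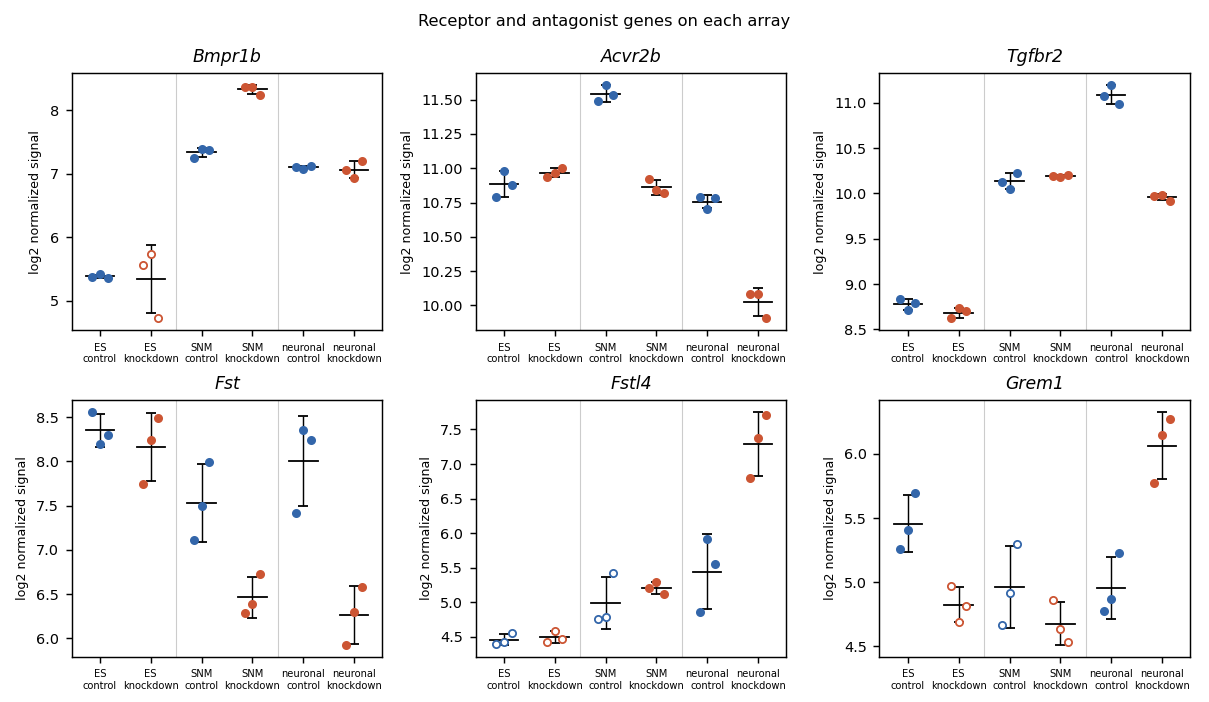
Log2 normalized signal (y axis, scaled for each gene) of 3 receptor and 3 antagonist genes on each array of the 6 conditions (x axis); points are arrays, blue for control and orange for knockdown, open where the probe was not detected on all 3 arrays, with the mean (line) and SD (bars). Acvr2b and Fst lie lower in knockdown cells at both later stages, Tgfbr2 separates only in the neuronal pools, and Grem1 is lower in knockdown ES cells and higher in the neuronal knockdown pool.

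A list of 27 genes known to respond to BMP or TGF-beta, none of them a member, was counted beside these genes. At the ES stage 0 of 18 tested were called by limma in either direction, with 1 higher and 4 lower at an unadjusted p under 0.05. In SNM cells 6 of 21 were higher in knockdown cells and 0 lower, beside 11% and 8.9% of all probes, with a median log2 fold change of 0.38 (-0.04 over all tested probes), where 12 were higher and 4 lower at an unadjusted p under 0.05. The largest were Ctgf, a matricellular TGF-beta target, at 1.72 (SE 0.06), the homeobox gene Msx1, a BMP target, at 1.48 (SE 0.13), and Id4, a BMP-induced inhibitor of differentiation factors, at 1.36 (SE 0.08). In the neuronal pool 6 of 22 were higher and 6 lower, beside 13.9% and 13.5% of all probes, with a median of 0.25 (0.01 over all tested probes). Hey1 (1.64, SE 0.07), Ctgf (1.25, SE 0.06) and Junb (1.07, SE 0.07) were the largest rises. The largest falls were those of Tgfbi, a TGF-beta-induced matrix protein (-1.75, SE 0.06), the transcription factor Gata3 (-1.54, SE 0.13) and Snai2, a factor of neural crest and mesenchyme (-1.51, SE 0.20). Col1a1, a fibroblast marker as well as a TGF-beta target, was higher in knockdown SNM cells (0.97, SE 0.15) and lower in the neuronal knockdown pool (-1.13, SE 0.15), as was the fibroblast marker sum, at 7946 to 8600 against 9694 to 11244 on SNM arrays. The part of such cells in these counts was not tested.

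A second list held 50 other components of the pathway, such as co-receptors, latent TGF-beta binding proteins, convertases and further antagonists, of which 45 are on the array. Bambi, Ltbp2, Pmepa1, Skil and Tgif1 stand in both lists. At the ES stage 0 of 28 were called by limma, with 1 higher and 9 lower at an unadjusted p under 0.05. The share of all probes at that p was not counted, and the median log2 fold change was -0.08 (0.01 over all tested probes). In SNM cells 7 of 31 were higher and 2 lower in knockdown cells, beside 11% and 8.9% of all probes. Sostdc1, a secreted BMP antagonist, was higher by 3.36 (SE 0.08), Nbl1, a DAN-family antagonist, by 1.86 (SE 0.09), and Rgma, a BMP co-receptor, by 0.99 (SE 0.06). The lower genes were Amhr2, the receptor of anti-Müllerian hormone, at -0.93 (SE 0.11), and Tdgf1, the Nodal co-receptor Cripto, at -0.80 (SE 0.12). In the neuronal pool 7 of 30 were higher and 7 lower, beside 13.9% and 13.5%. Pcsk6, a convertase that processes Nodal and other precursors, was higher by 2.07 (SE 0.11), Sostdc1 by 0.95 (SE 0.08) and Itgav, an integrin subunit that activates latent TGF-beta, by 0.90 (SE 0.22). Tdgf1, which also stands among the pluripotency markers, was lower by the most (-2.39, SE 0.12), Itgb6, the integrin partner of Itgav, was at least 3.75-fold lower, and Eng, an endothelial co-receptor, at least 2.4-fold lower. Of 7 endothelial markers, 3 were tested at the neuronal stage, and 2 were called lower and 0 higher, beside 13.5% and 13.9% of all probes. The 7 summed to 3517 to 3696 on control and 997 to 1037 on knockdown neuronal arrays. Most of that sum was Emcn, at means of 11.74 and 9.84, while Pecam1 read 4.62 and 4.56. The part of endothelial cells in the Eng value was not tested.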

How the data were processed

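The authors hybridised RNA to 18 Illumina MouseWG-6 v2 arrays and deposited, for each probe and array, a summary intensity without normalization and a detection p-value. The detection p-value deposited with each array followed that array's own signal best on 18 of 18 arrays. The file also holds 72 columns of values by chip position, which were not used. Intensities were background-corrected from the detection p-values (offset 16), quantile normalized and put on the log2 scale (limma 3.58.1, function neqc, R 4.3.3). All 6 conditions were fitted together (lmFit, eBayes, two-sided). Probes detected at p under 0.05 on all 3 arrays of at least 1 compared condition were tested, with Benjamini-Hochberg adjustment over all of them. Exact permutation of 3 against 3 arrays cannot give a p under 0.1. The number of arrays limits the precision. Where a condition was detected on no array, "at least" gives a bound against the lowest detected signal.

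The members and all gene lists were chosen with earlier results of these data known. Values on every array are given for members called at the ES stage and for the 6 largest rises and 6 largest falls at each later stage, and of other lists the 3 largest in each direction. The values of 1 member are not reported here, and it enters the counts only. Annotation symbols were used, and 52 of 60 members matched the reference by gene number.

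Same-numbered arrays deviated together in the SNM comparison (correlations 0.5177, 0.1072 and 0.5074) and in the neuronal comparison (0.6369, 0.0921 and 0.3483). They also did so between the SNM and neuronal stages of knockdown cells (0.5482, 0.1343 and 0.5302). Between the ES and SNM stages of knockdown cells the correlations were 0.3288, 0.0648 and 0.227. Between the SNM and neuronal stages of control cells they were 0.6314, -0.1442 and 0.3718. In the ES comparison and between the ES and SNM stages of control cells they were of both signs, from -0.1299 to 0.2025. The number marks an array and no shared animal. Alternatives were quantile normalization or 75th-percentile scaling without background correction, no detection filter, a 2-fold minimum, the mean over probes, the compared groups only, the methods' t-test, a replicate block and leaving out each array. On simulated data for the SNM comparison (20765 probes), 90% and 98% of changes of -1 and 1 and 100% of those of -2 and 2 on the log2 scale were recovered, with 4 false calls. The simulated error was independent between arrays, and 50 probes were changed by each amount. Deviations shared by same-numbered arrays and the spread between cultures were not simulated, so these rates do not cover them.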

Additional observations from a re-analysis of the deposited data

Results flagged for a closer look

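The knockdown difference itself changed between stages for some of the members, by limma's test of the difference at an adjusted p under 0.05 and at least 1.5-fold. The values below are changes of the log2 knockdown difference, and each test covers array error only. With the array number as a replicate block, Fst was called too at both steps, and Tgfb2 from the SNM to the neuronal stage, so that 20 members rather than 19, and then 22 rather than 20, were called.

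From the ES to the SNM stage the difference became more positive for 12 members, by 3.48 for Bmp3, 2 for Gdf10, 1.46 for Gdf1, 1.05 for Bmp1, 1.03 for Bmpr1b, 0.88 for Tgfb3, 0.77 for Bmp7, 0.70 for Bmp5, 0.67 for Gdf9, 0.62 for Smad6, 0.62 for Nog and 0.60 for Chrd. It became more negative for 7 members, at -1.08 for Gdf3, -0.96 for Nodal, -0.87 for Lefty2, -0.77 for Lefty1, -0.76 for Acvr2b, -0.68 for Gdf15 and -0.67 for Fstl5. Bmp3, Gdf10, Tgfb3 and Fstl5 were detected on no ES array and Smad6 on no knockdown ES array, so the ES difference subtracted for them lies at background and their values are fitted values with no bound. Bmp5 and Bmpr1b were detected on part of the ES arrays.

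From the SNM to the neuronal stage it became more positive for 4 members, by 1.90 for Gdf15, 1.63 for Fstl4, 1.47 for Bmp4 and 1.39 for Grem1. It became more negative for 16 members, at -3.19 for Gdf10, -2.05 for Bmp3, -1.38 for Tgfb3, -1.26 for Lefty2, -1.25 for Gdf3, -1.19 for Tgfbr2, -1.18 for Chrd, -1.04 for Bmp5, -1.03 for Bmpr1b, -0.95 for Lefty1, -0.95 for Bmp6, -0.88 for Nodal, -0.70 for Acvr2a, -0.66 for Tgfbr3, -0.65 for Fstl1 and -0.60 for Acvr1c. Acvr1c was detected in knockdown SNM cells only, on none of the other arrays of these stages, and Bmp6 on no control SNM array, so their values too rest on levels at background. Fstl4 and Grem1 were detected on part of the SNM arrays. Bmp3, Bmp5, Bmpr1b, Chrd, Gdf10 and Tgfb3 stand in both lists with opposite signs, more positive at the SNM stage and more negative at the neuronal stage, and Gdf15 with the reverse order. Gdf3, Lefty1, Lefty2 and Nodal became more negative at both steps. The steps share the SNM arrays. Muscle and oligodendrocyte marker sums differed widely between the neuronal pools, and their part in these values was not tested.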

How the results depend on the processing

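No sign of the 40 calls between knockdown and control turned in 520 values over the 13 settings run on each gene. These settings leave out the methods' t-test, and 16 of the calls held in all 13. The 2-fold minimum, no detection filter, the replicate block and the compared groups only leave the log2 fold change as it was. In those settings the sign could not turn. The single ES call, Grem1, was lost (0 calls) with quantile normalization without background correction (-0.28), 75th-percentile scaling (-0.26), no detection filter, a 2-fold minimum and the methods' t-test after Benjamini-Hochberg adjustment, and leaving out 1 array gave 0 to 1 calls. A 2-fold minimum left 5 of 16 SNM and 14 of 23 neuronal calls, and quantile normalization without background correction or 75th-percentile scaling lost 13 of the 40 calls each. Both lost Bmp5, Bmp7, Lefty1, Lefty2 and Nog in SNM cells and Acvr2a, Bmp6, Fstl5, Tgfb1 and Tgfbr1 in the neuronal pool. The former also lost Grem1 there, and the latter Chrd in SNM cells. The mean over probes lost Bmp1, Bmp7 and Bmpr1b in SNM cells and Bmp7, Tgfbr1 and Tgfbr2 in the neuronal pool.

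Calls from the SNM to the neuronal stage went from 14 in control cells to 9 with quantile normalization without background correction, 9 with 75th-percentile scaling and 7 at 2-fold, and from 19 in knockdown cells to 12 with the former and 9 at 2-fold. Calls on the change of the knockdown difference went from 19 to 10, 12 and 6 (SNM against ES) and from 20 to 13 at 2-fold (neuronal against SNM). The cause was not tested, beyond the stricter fold itself. The methods' t-test gave 1, 16 and 22 calls at the 3 stages unadjusted and 0, 15 and 21 after Benjamini-Hochberg adjustment. With the replicate block the 3 stages gave 1, 17 and 23 calls, the block adding Tgfb2 in SNM cells, and it kept all 40 calls. Levels near background limit Grem1, Bmp6 and Fstl5, and 1 RNA pool per condition limits every comparison.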
